A study of Mus musculus with 4 samples.

Results

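In bile-duct-ligated mouse liver, 953 of 14691 promoter peaks of the wild-type open-chromatin library (6.49%) overlapped no peak of the Mertk knockout library. These wild-type-only promoter peaks were chosen by the peak positions measured in both libraries: a wild-type peak on chromosomes 1 to 19, X or Y was taken if the authors' annotation gave it at least 1 promoter line and if it shared not even 1 bp with any knockout peak. They belonged to 934 of the 14854 genes that had a wild-type promoter peak (6.29%). The other 13738 wild-type promoter peaks are called shared. In the opposite direction, 3669 of 17419 knockout promoter peaks (21.1%) overlapped no wild-type peak, and 3425 of 17006 genes with a knockout promoter peak (20.1%) held one. Because the rule used this contrast, these shares and every count below that follows from them describe the 2 peak lists and test nothing.

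The study asked how chromatin accessibility and gene expression in the fibrotic liver differ between wild-type and Mertk knockout mice. Both groups had undergone bile duct ligation, an operation that stops bile outflow and leads to cholestasis and fibrosis. The wild-type group and the Mertk knockout group each had 1 ATAC library and 1 RNA library, made from the same frozen liver nuclei with the 10x Genomics Multiome kit. With 1 library per group there is no replicate and no test between genotypes, and the labels used here give no strain, sex, age, time after ligation, deleted exon or number of animals.

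In ATAC sequencing a transposase cuts accessible DNA, so a peak marks a stretch where many nuclei of a library, or a few nuclei with very open chromatin, were cut. A promoter peak lies at the start of a gene, where RNA polymerase and general factors assemble, while distal peaks include enhancers. Promoters of genes that every cell uses are usually open in every cell type, whereas promoters of lineage genes, such as receptors of lymphocytes and macrophages, are usually open in the cells that can transcribe them. Mertk encodes a receptor tyrosine kinase with which macrophages take up dying cells. A peak list over all nuclei cannot tell fewer nuclei of a cell type from less open chromatin per nucleus.

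The 2 libraries stood apart in depth and in liver markers, and this touches every result below. The wild-type library had 5828 called nuclei with 40858512 ATAC fragments, and the knockout library had 5339 with 83996145, a ratio of 2.06 for fragments. Of these fragments 33.7% and 46% lay in the library's own peaks, and 44 called barcodes occurred in both libraries. The knockout list held 1.47 times as many peaks (106319 against 72302) and 1.19 times as many promoter peaks. Of 20 hepatocyte markers, 4 had a wild-type promoter peak (Ass1, Hnf4a, Tat and Trf) against 20 in the knockout, and Alb, the gene of serum albumin, had 0 wild-type and 10 knockout peaks. The wild-type library thus had no peak at a defining gene of the tissue it is labelled with, and the part of this and of depth in the results was not tested. Mertk itself held no wild-type-only promoter peak: its promoter peak on chromosome 2 was called at 128698195 to 128699084 (wild type) and at 128698350 to 128699122 (knockout), sharing 735 bp. Since a disrupted gene may keep an accessible promoter, this says nothing on whether the genotype labels hold.

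The sequences below are the 150 bases just before the RefSeq start of 8 genes whose wild-type-only promoter peak was not replaced by any other knockout promoter peak. They show a Kupffer cell gene (Vsig4), a neutrophil gene (Fpr1) and a pair of natural killer cell genes (Xcl1, Klrb1c). The others were taken for peak width: the named genes with the widest peaks for which such a stretch was held (Cst7, Pxt1, Il2ra, Ntn3). All 150 bases lay inside the peak in each case and outside any RefSeq gene. They come from RefSeq on GRCm38.p6, the assembly behind mm10, and are written 5′ to 3′ on the gene's strand. In mm10 they lie at chrX:96293439-96293588 (minus strand, Vsig4), chr17:17883940-17884089 (minus, Fpr1), chr1:164935523-164935672 (minus, Xcl1), chr6:128788642-128788791 (minus, Klrb1c), chr2:11642642-11642791 (plus, Il2ra), chr2:150570265-150570414 (plus, Cst7), chr17:28942263-28942412 (minus, Pxt1) and chr17:24209388-24209537 (minus, Ntn3). Capitals mark matches, on either strand, to 9 short motifs spelled out below.
Vsig4: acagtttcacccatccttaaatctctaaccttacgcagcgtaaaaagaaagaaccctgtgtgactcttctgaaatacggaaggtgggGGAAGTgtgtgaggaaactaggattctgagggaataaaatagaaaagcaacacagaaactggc
Fpr1: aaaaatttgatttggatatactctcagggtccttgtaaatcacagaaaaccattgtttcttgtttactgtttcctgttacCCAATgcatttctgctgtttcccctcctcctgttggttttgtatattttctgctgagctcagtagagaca
Xcl1: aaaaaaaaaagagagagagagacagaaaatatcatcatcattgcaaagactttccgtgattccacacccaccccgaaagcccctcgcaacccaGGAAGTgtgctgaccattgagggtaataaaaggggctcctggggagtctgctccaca
Klrb1c: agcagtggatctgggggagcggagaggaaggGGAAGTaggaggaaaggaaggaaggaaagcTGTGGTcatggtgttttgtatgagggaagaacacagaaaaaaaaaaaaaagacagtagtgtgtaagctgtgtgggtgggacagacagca
Il2ra: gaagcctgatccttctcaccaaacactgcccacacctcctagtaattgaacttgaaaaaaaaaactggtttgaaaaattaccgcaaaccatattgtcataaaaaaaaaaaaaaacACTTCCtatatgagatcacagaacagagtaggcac
Cst7: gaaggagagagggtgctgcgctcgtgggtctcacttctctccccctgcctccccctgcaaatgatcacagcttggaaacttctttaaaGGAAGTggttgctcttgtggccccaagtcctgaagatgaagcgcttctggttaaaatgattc
Pxt1: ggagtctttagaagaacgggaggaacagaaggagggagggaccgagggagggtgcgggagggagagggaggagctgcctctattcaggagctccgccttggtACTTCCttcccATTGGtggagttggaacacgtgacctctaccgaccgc
Ntn3: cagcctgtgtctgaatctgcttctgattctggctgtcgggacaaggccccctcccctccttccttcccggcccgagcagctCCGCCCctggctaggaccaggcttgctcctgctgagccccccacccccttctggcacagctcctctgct

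In 6 of these 8 stretches the letters of an ETS site occurred, the motif of a family of transcription factors that includes PU.1. Counted back from the start, its first base lay at position 63 in Vsig4, 57 in Xcl1, 119 in Klrb1c, 62 in Cst7, 48 in Pxt1 and 35 in Il2ra. Klrb1c also held a Runx site at 89, Pxt1 and Fpr1 a CCAAT box at 37 and 70, and Ntn3 an Sp site at 69. The letters searched for, with the share of all 32851 RefSeq promoters that hold them in the 150 bases before the start, were as follows. The ETS letters GGAAGT were present in 13.6% of promoters. The Runx letters TGTGGT were present in 8.4%. The CCAAT box, by its name, was present in 24.5%, and the Sp letters GGGCGG in 28.6%. The TATA box TATAAA was found in 7.57% and the AP-1 letters TGANTCA in 4.24%. The CEBP letters TTGCNNAA were found in 5.46%, the GATA letters AGATAA in 5.65% and the octamer ATGCAAAT in 0.998%. A match is a description of letters and not a bound site, and 8 chosen promoters give no share to compare.

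A check of base composition or motifs over all wild-type-only promoter peaks is void, because a RefSeq window (250 bases before to 50 after a start) with the same gene symbol overlapped only 269 of the 953 (28.2%), against 69.8% of the shared ones. Within those 269 the median GC content of the window was 52.33% (quartiles 47 and 59), and within the 9587 matched shared peaks it was 61.67% (55.33 to 68). ETS letters occurred in 34.6% of the 269 windows, Runx letters in 27.5% and Sp letters in 30.9%, against 29.3%, 12.1% and 67.1% of the matched shared peaks and 23.8%, 16.8% and 35.7% of all RefSeq windows of that length. The 1625 matched knockout-only promoter peaks had a median GC of 55.67%, and 17.7%, 15.5% and 40.7% for these letters. At a window GC of 50% or more, ETS letters occurred in 27.5% of wild-type-only and 28.5% of shared windows. The narrower PU.1 letters, which are the ETS letters with an A before them, occurred there in 15.2% and 8.61%. Over all matched windows PU.1 letters occurred in 20.4% and 9.72%. At a GC of 50% or more, Runx letters occurred in 28.7% and 11.3%, and Sp letters in 43.9% and 72.7%. Under 50% GC the values were 46.9% and 36.1% (ETS), 25.5% and 18.4% (Runx), and 8.16% and 19.1% (Sp). These values describe the matched windows alone, and the exact 95% intervals for the 269 run from 28.9 to 40.6% for ETS and from 22.3 to 33.3% for Runx, counting error only.

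Many wild-type-only promoter peaks lay close to a knockout peak without touching it. The gap to the nearest knockout peak had a median of 1071 bp (quartiles 376 and 5332, range 2 to 721333 bp). It was under 200 bp for 141 peaks, under 1 kb for 466 (48.9%), 1 to 10 kb for 323 and 10 kb or more for 164 (17.2%). For 319 of the 466 peaks under 1 kb the neighbouring knockout peak was a promoter peak of the same gene, and for 131 it was a distal peak of that gene. The knockout-only promoter peaks lay farther from wild-type peaks, with a median gap of 7034 bp and 19.7% under 1 kb. The members just inside the rule were those of Gm15880 at 2 bp, Fam107b at 5, Ptp4a1 at 8, Dusp1 (a phosphatase of MAP kinases) at 9 and Gpr137b at 10. Just outside it were shared peaks of Dtx3 and Gngt2 with an overlap of 1 bp, 2010013B24Rik with 5, Tpd52 with 6 and Sh2d6 with 11.

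Wild-type-only promoter peaks were somewhat narrower than the shared ones, with a median of 835 bp (quartiles 744 and 889) against 878 bp (838 and 907). The share of wild-type promoter peaks with no knockout overlap was 32.1% among the 134 under 500 bp, 4.92% from 800 to under 900 bp, 3.74% from 900 to under 1000 bp and 13% at 1000 bp or more. A narrow peak can miss a neighbour more easily, so width is not independent of the rule. The annotated gene start lay inside 52.3% of the wild-type-only peaks (exact 95% interval 49 to 55.5, counting error only), inside 91% of the shared peaks and inside 71.1% of the knockout-only promoter peaks. Promoter lines of 2 or more genes, as at divergent gene pairs, were carried by 13 of the 953 (1.36%) against 12.9% of the shared peaks.

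**Figure D1:**
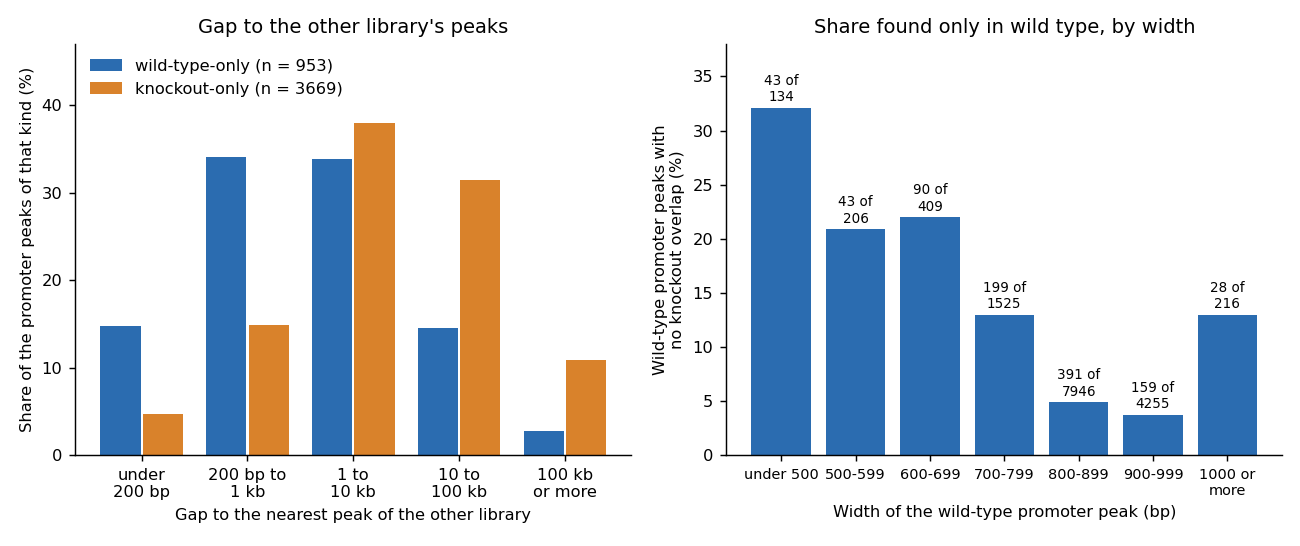
Left: share (%) of the wild-type-only (blue) and knockout-only (orange) promoter peaks by gap to the nearest peak of the other library. Right: share (%) of all wild-type promoter peaks that were wild-type-only, by peak width, with the numbers above each bar. Gaps under 1 kb make up 48.9% of the blue peaks and 19.7% of the orange ones, and the right-hand share is lowest, 3.74%, from 900 to under 1000 bp.

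At the level of genes, a wild-type-only promoter peak often did not mean a promoter without a knockout peak. Of the 934 genes, 440 (47.1%) had another promoter peak in the knockout, 388 (41.5%) had only distal knockout peaks and 106 (11.3%) had no knockout peak of any kind. For the 440, the own knockout promoter peak lay a median of 431 bp away (quartiles 198.8 and 1014) and 10 kb or more away for 61, and 390 of them also had a shared wild-type promoter peak. The 494 genes without a knockout promoter peak stand beside 557 such genes among all 14854 with a wild-type promoter peak (3.75%), and the 106 without any knockout peak beside 109 (0.734%). Of the 106, 70 had a single wild-type peak, so that 1 peak carries the class, and 20 had 3 or more. The 637 genes with an ordinary name fell into 382, 185 and 70 in these 3 classes, and the 297 predicted or clone-named genes into 58, 203 and 36.

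Among the marker lists, that of natural killer and cytotoxic lymphocytes had the highest share of genes with a wild-type-only promoter peak. Of its 21 genes, 12 had a wild-type promoter peak, 10 of these held a wild-type-only promoter peak (83.3%, against 6.29% of all genes with a wild-type promoter peak), and none of the 10 had a knockout promoter peak elsewhere. The list had 89 wild-type peaks and 55 knockout peaks. Natural killer cells kill infected or altered cells with perforin and granzymes and read their targets through lectin-like receptors. Klrk1 encodes the activating receptor NKG2D and had 5 wild-type peaks (1 promoter, 4 distal) and 0 in the knockout. Klrb1c, which encodes NK1.1, had 1 promoter and 9 distal wild-type peaks, against 0 and 8 in the knockout. Klrc1, of the NKG2 receptors that pair with the Klrd1 product CD94, had 3 peaks in the wild type and 1, distal, in the knockout.

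Effector genes of the list also lacked a knockout promoter peak. Ifng, which encodes interferon gamma, had 6 wild-type peaks and 1 distal knockout peak, and Cd226, an activating adhesion receptor, had 9 and 1. Ccl5, a chemokine of cytotoxic cells, had 5 distal peaks in each library, while its promoter peak on chromosome 11 (83530102 to 83531111, 1010 bp) was in the wild type alone. Xcl1, the chemokine that attracts cross-presenting dendritic cells, had a single peak in the wild type (942 bp on chromosome 1) and 0 in the knockout, with the nearest knockout peak of any gene 29569 bp away. The remaining genes of the list with a promoter peak in either library were named after their values were seen. Nkg7, a cytotoxic granule membrane protein, and Klrd1 each had 1 wild-type promoter peak and nothing in the knockout, and Gzmb, the gene of granzyme B, had 3 wild-type peaks and 2 distal knockout peaks. Cd244a had a shared promoter peak, Prf1, the gene of perforin, a shared and a knockout-only one, and Fasl a knockout-only one. Thus 2 of the 3 genes of the list with a knockout promoter peak held a knockout-only one. Gzma, Gzmk, Ncr1, Eomes, Klre1, Klra8, Il2rb and Klrg1, also of the list, had no promoter peak in either library.

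**Figure D2:**
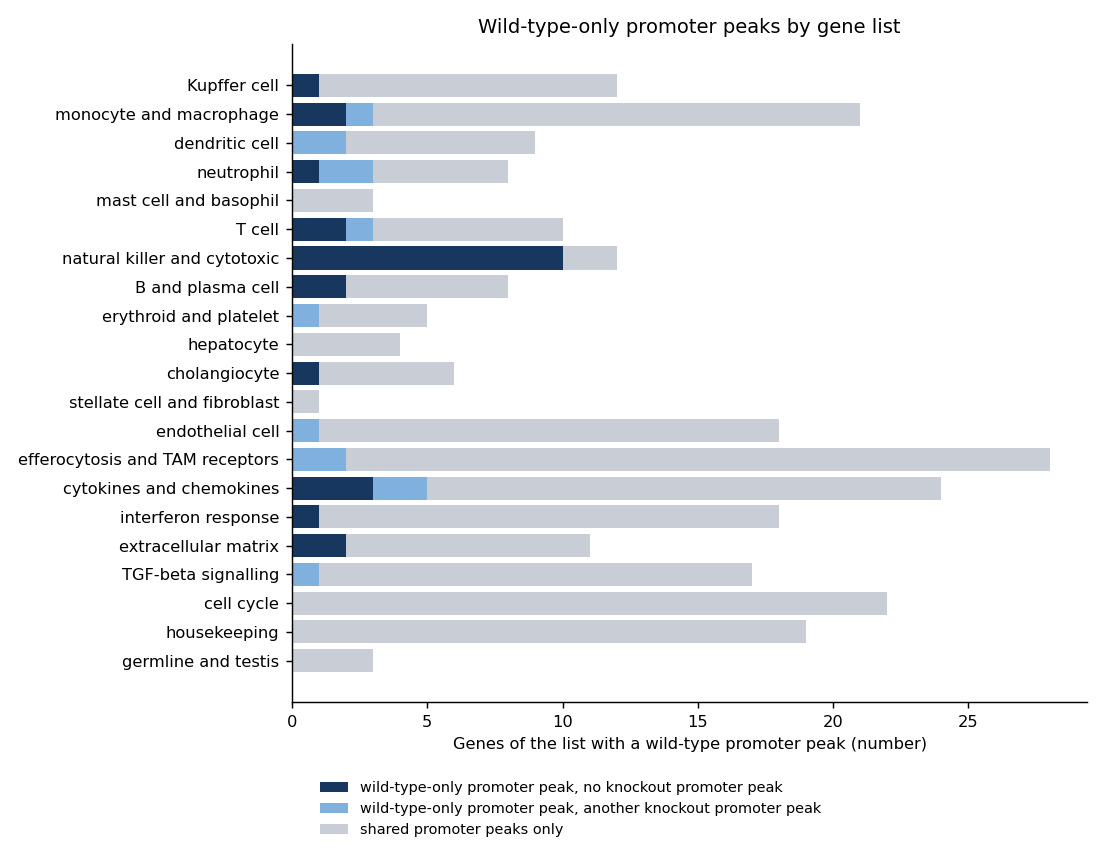
Number of genes with a wild-type promoter peak in each gene list (bars), split into genes with a wild-type-only promoter peak and no knockout promoter peak (dark blue), with a wild-type-only promoter peak and another knockout promoter peak (light blue), and with shared promoter peaks only (grey). The natural killer and cytotoxic list is dark for 10 of 12 genes, and the housekeeping and cell cycle lists are grey throughout.

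Of 12 Kupffer cell markers with a wild-type promoter peak, Vsig4 held a wild-type-only one (8.33%, beside 6.29% of all such genes); Vsig4 encodes a complement receptor of resident liver macrophages, and it had 8 peaks in the wild type (1 promoter, 7 distal) and 1 distal peak in the knockout. The whole Kupffer list had 77 wild-type and 74 knockout peaks. Of 21 monocyte and macrophage genes it was Fcrls, Plac8 and Cx3cr1 (14.3%). Fcrls, an Fc receptor-like gene of tissue macrophages, had 6 wild-type peaks and 0 in the knockout. Plac8 had 13 and 10, and Cx3cr1, the fractalkine receptor of monocytes, had 24 and 27 with a knockout promoter peak 828 bp from its wild-type-only one. This list had 178 wild-type and 168 knockout peaks.

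For neutrophil genes it was 3 of 8 (37.5%), and none when a knockout peak within 1 kb counted as shared: Fpr1, the formyl peptide receptor, with 5 wild-type peaks and 2 distal knockout peaks, and Csf3r and Cebpe, whose knockout promoter peaks lay 447 and 41 bp away. For dendritic cells it was 2 of 9 (22.2%), Clec9a and Zbtb46, each with a knockout promoter peak within 1 kb. For T cells it was 3 of 10 (30%): Icos, a costimulatory receptor, with 6 wild-type peaks and 4 knockout peaks; Cd2, an adhesion receptor, with 4 and 5; and Tbx21, the gene of the transcription factor T-bet, with 5 and 4 and a knockout promoter peak 201 bp away. For B cells it was 2 of 8 (25%), Cd79b of the antigen receptor complex (3 and 2 peaks) and the inhibitory receptor gene Cd22 (2 and 1). Mast cell and basophil genes held none of 3. Over the 8 white blood cell and macrophage lists together, 24 of 83 genes with a wild-type promoter peak (28.9%) held a wild-type-only one, and 18 had no knockout promoter peak. The natural killer and cytotoxic list gave 10 of the 24 and 10 of the 18. This share and those of the single lists stand beside 6.29% of all such genes. In the opposite direction 8 of 71 (11.3%) held a knockout-only promoter peak, beside 20.1% of all such genes. The lists had 733 wild-type and 687 knockout peaks in all.

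**Figure D3:**
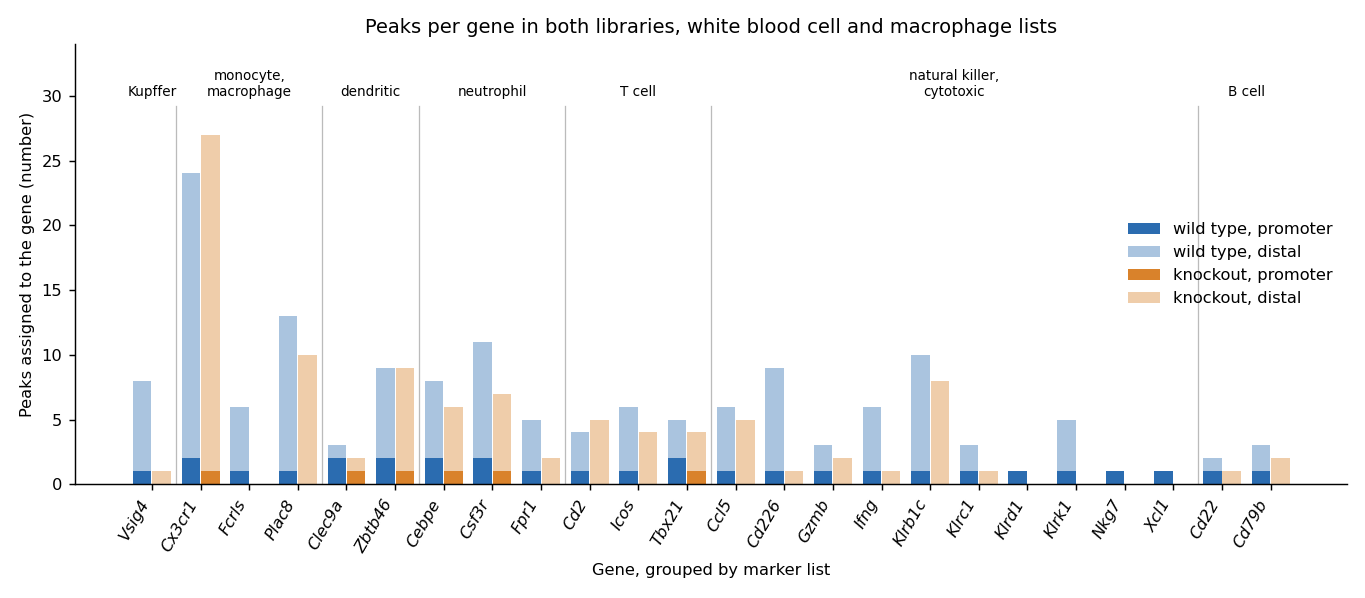
Number of peaks assigned to each of the 24 genes with a wild-type-only promoter peak in the white blood cell and macrophage lists, for wild type (blue) and knockout (orange), with promoter peaks in solid and distal peaks in pale colour. Fcrls, Klrd1, Klrk1, Nkg7 and Xcl1 have no orange bar, while Cx3cr1 has 24 wild-type and 27 knockout peaks.

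In the hepatocyte, cholangiocyte, stellate, endothelial and mesothelial lists together, 2 of 29 genes with a wild-type promoter peak (6.9%) held a wild-type-only one, near the 6.29% over all such genes. Of their genes with a knockout promoter peak, 39 of 60 (65%) held a knockout-only one, beside 20.1% over all such genes. Those 2 genes were Spp1 (1 of 6 cholangiocyte genes), which encodes osteopontin, with 5 wild-type peaks and 6 distal knockout peaks, and Kdr (1 of 18 endothelial genes), a VEGF receptor, whose knockout promoter peak lay 145 bp away. Hepatocyte genes gave 0 of 4 and stellate cell genes 0 of 1, and no mesothelial gene had a wild-type promoter peak. Of 5 erythroid and platelet genes Pf4, the gene of platelet factor 4, held one, 96 bp from its knockout promoter peak. Housekeeping genes gave 0 of 19, cell cycle genes 0 of 22 and germline genes 0 of 3.

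In the list of cytokines and chemokines, 5 of 24 genes (20.8%) held a wild-type-only promoter peak, and 2 did when a knockout peak within 1 kb counted as shared. Il4, the type 2 cytokine, had 1 wild-type peak and 0 in the knockout, and Ccl22, a macrophage and dendritic cell chemokine, had 2 and 0. Il12a, a subunit of interleukin 12, had 13 and 9 with no knockout promoter peak, but a knockout peak lay 134 bp from its wild-type-only one. Il18 and Cxcl10 each had a knockout promoter peak, 538 and 203 bp away. In the efferocytosis list, to which Mertk belongs, Elmo1 and C1qc of 28 genes held one (7.14%, near the 6.29% over all genes); Elmo1, which drives engulfment through Rac, had 35 wild-type and 32 knockout peaks, and both genes had another promoter peak in the knockout. The interferon list gave Isg15, 1 of 18 (5.56%), with 1 wild-type peak and none in the knockout. The matrix list gave 2 of 11 (18.2%): Mmp13, a collagenase, with 3 wild-type peaks and 0 in the knockout, and Vcan, the proteoglycan versican, with 11 and 12. TGF-beta signalling gave 1 of 17 (5.88%), Ltbp1, with 7 and 22.

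Several wild-type-only promoter peaks lay in gene families that sit side by side. Runs of at least 4 such peaks with gaps of at most 500 kb, a rule set after the values were seen, numbered 22 and held 129 of the 953. The wild-type-only share of their wild-type promoter peaks went from 12.2% (10 of 82, chromosome 17) and lower to 84.2%, beside 6.49% over all. A run was defined by such peaks, which raises its share. The runs described here are those with the highest shares, and not every other run was a gene family. On chromosome 6, from 128788230 to 129878336, the natural killer gene complex held 14 wild-type-only promoter peaks among 25 wild-type promoter peaks. That stretch had 118 wild-type peaks, of which 67 were shared, and 90 knockout peaks, of which 11 were promoter peaks. The 14 belonged to the Klr genes, to Clec2i, Clec2f and Clec9a of the C-type lectins, to Cd69, an early activation marker of lymphocytes, and to Gm15987. By name, 8 of 10 Klr genes with a wild-type promoter peak held one and all 8 lacked a knockout promoter peak; the Klr family had 53 wild-type and 24 knockout peaks. Klrb1b and Klri1 had 4 wild-type peaks each, Klri2 had 3 and Klra17 had 2, both at promoters, against 0, 0, 1 and 0 in the knockout.

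On chromosome 12, from 114611904 to 116139379, variable segments of the immunoglobulin heavy chain carried 15 of the 16 wild-type-only promoter peaks in the run, and Gm20658 carried the other. The run had 19 wild-type promoter peaks and 22 wild-type peaks in all, of which 5 were shared, against 5 knockout peaks. Of 16 such segments with a wild-type promoter peak, 15 held a wild-type-only one, each as the gene's single wild-type peak and with 0 knockout peaks, while 4 of 5 segments with a knockout promoter peak held a knockout-only one. These shares (93.8% and 80%) stand beside 6.29% and 20.1% of all such genes. The edges of the run were set by its wild-type-only promoter peaks, so knockout peaks beyond them are not counted in it. The whole family had 18 wild-type and 12 knockout peaks. It was grouped after its values were seen. Segments of the light chain and T cell receptor loci held others, among them Igkv14-111 (1168 bp on chromosome 6), Trav15-3 and Trav15d-3, Trbv24 and Trbv31. Such segments, like the Klr, Ms4a and Olfr genes and the pair Trav15-3 and Trav15d-3, have near-identical copies between which aligned reads can be split, so their counts are uncertain.

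**Figure D4:**
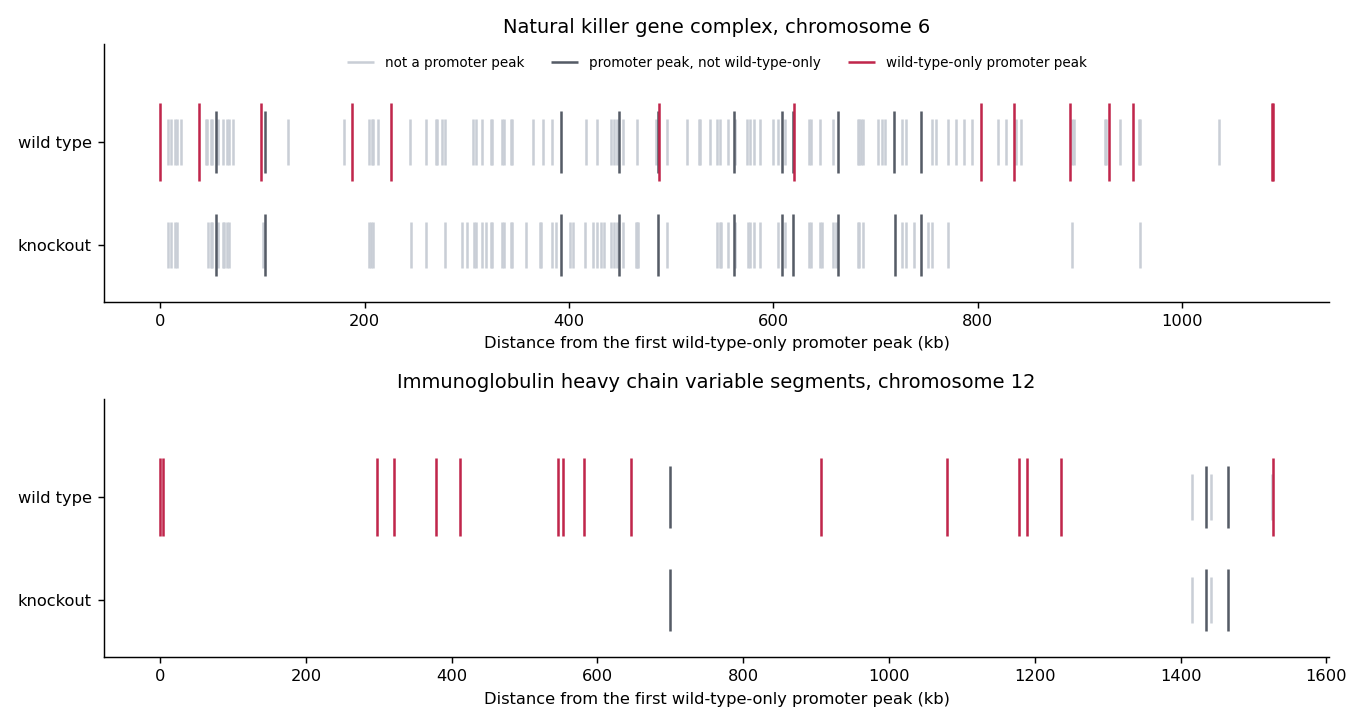
Peaks of the wild-type (upper) and knockout (lower) library along 2 runs of wild-type-only promoter peaks, as distance in kb from the first such peak. Red lines are wild-type-only promoter peaks, dark grey lines are other promoter peaks and pale lines are peaks with no promoter line. The natural killer gene complex keeps knockout peaks over much of its length with 14 red lines above, and the immunoglobulin run has 16 red lines against 5 knockout peaks. Each map ends at the outermost red lines, so knockout peaks beyond them are not drawn.

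On chromosome 19, 7 of 10 wild-type promoter peaks in the Ms4a run had no knockout overlap, among them those of Ms4a4c (8 wild-type and 2 knockout peaks) and Ms4a6d (6 and 5), membrane proteins of the family that includes the B cell antigen CD20. On chromosome 11 the olfactory receptor Olfr56 and its neighbours gave 4 of 5. Of 14 olfactory and vomeronasal receptor genes with a wild-type promoter peak, 8 held a wild-type-only one, and of 18 with a knockout promoter peak 11 (61.1%) held a knockout-only one. These genes had 205 wild-type and 276 knockout peaks in all; Olfr110 had 1 wild-type and 0 knockout peaks, and Olfr111 had 4 and 1.

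Of interleukins and their receptors, grouped by name, 9 of 44 (20.5%) held a wild-type-only promoter peak, beside 6.29% of all genes, and 9 of 41 with a knockout promoter peak (22%) held a knockout-only one, beside 20.1%. The family had 350 wild-type and 445 knockout peaks. Il2ra, which encodes the high-affinity interleukin 2 receptor chain CD25, held 2 of them, with 6 wild-type and 5 distal knockout peaks. Il21r had 14 and 10, and Il5ra, the eosinophil receptor, had 2 and 1. Il12rb2, the interleukin 12 receptor chain, had 5 and 4, with another promoter peak in the knockout. Of chemokines and their receptors 6 of 33 (18.2%) held one and 7 of 34 (20.6%) a knockout-only one, with 275 wild-type and 321 knockout peaks in all. Among them was Ccr3, the eotaxin receptor, with 8 and 6 peaks. Of genes grouped by a TNF name, which were ligands, receptors and others such as Tnfaip8, 5 of 33 (15.2%) held one. In the opposite direction 8 of 32 (25%) held a knockout-only one, and the group had 200 wild-type and 229 knockout peaks. Tnfsf8 had 13 wild-type and 2 knockout peaks, 1 of the latter a promoter peak, with the nearest knockout peak 199 bp from its wild-type-only one. Tnfsf4, the OX40 ligand, had 6 and 5, and Tnfrsf25 had 1 and 1. Tnfrsf13c, the BAFF receptor of B cells, had 3 and 0.

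Among receptors named Gpr or Adgr 7 of 51 (13.7%) held one and 21 of 60 (35%) a knockout-only one, with 387 wild-type and 516 knockout peaks. Gpr34 and Gpr141, among the genes with the widest such peaks of the family, had fewer peaks in the knockout, unlike the family's total. Gpr34, a lysophosphatidylserine receptor of macrophages and microglia, had 9 wild-type peaks and 2 distal knockout peaks, and Gpr141 had 13 and 6. Gpr55, a lysophosphatidylinositol receptor, had 1 and 4. CD-numbered antigens gave 10 of 62 (16.1%), and 7 of 60 (11.7%) in the opposite direction. Cd207, the gene of langerin, held a wild-type-only promoter peak and had 3 wild-type and 2 knockout peaks. Solute carriers gave 16 of 220 (7.27%), and 85 of 281 (30.2%) in the opposite direction, beside 6.29% and 20.1% of all such genes. Tripartite motif genes gave 6 of 43 (14%) and 8 of 45 (17.8%). A group of homeobox, forkhead, Sox and T-box genes gave 10 of 71 (14.1%) and 60 of 123 (48.8%). Zinc finger genes gave 14 of 387 (3.62%), and none of those 14 lacked a knockout promoter peak. Ribosomal protein genes gave 0 of 87, MAP kinase genes 0 of 48, and genes of the mitochondrial ribosome and respiratory chain 1 of 168. In the opposite direction these gave 4 of 88, 5 of 53 and 3 of 168. Cytochromes P450 gave 0 of 22, but 39 of 59 (66.1%) in the opposite direction, with 132 wild-type and 420 knockout peaks.

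The widest wild-type-only promoter peak, 1536 bp on chromosome 19 at Sh3pxd2a, an adaptor of podosomes, lay 96 bp from a knockout peak, and that gene had 21 wild-type and 42 knockout peaks. Pou2f1, which encodes the octamer-binding factor Oct-1, followed among ordinarily named genes with 1304 bp, 54778 bp from any knockout peak, and a knockout promoter peak 67017 bp away. Cst7, the gene of cystatin F, an inhibitor of cathepsins in cytotoxic and myeloid cells, had a 1066 bp peak, its only one, and 0 knockout peaks. Tap2, which carries peptides to MHC class I, had 1063 bp and lay 374 bp from a knockout peak, with 4 wild-type and 2 distal knockout peaks. Nap1l2 had 1128 bp, with 3 wild-type peaks and 0 in the knockout. Apart from Fcrls, Klrk1 and the Klr genes above, Bcl2a1b, an inhibitor of apoptosis with near-identical copies, had the most wild-type peaks without any in the knockout (4 and 0), and Clrn3 and Prss29 had 3 and 0 each.

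Further genes were singled out after their values were seen, for their known roles in immunity. They are examples picked by role, outside the lists and the naming rule, and give no share of immune genes. Ciita, the master regulator of MHC class II genes, had 8 wild-type and 5 distal knockout peaks and no knockout promoter peak. Pycard, the inflammasome adaptor ASC, and S100a4 each had a single wild-type promoter peak and no knockout peak. Lag3, an inhibitory lymphocyte receptor, had 4 and 3 peaks, and Themis, a gene of T cell development, had 5 and 6, both without a knockout promoter peak. Sh2d1b1, an adaptor of natural killer cells, had 7 wild-type and 2 knockout peaks. Acod1, which makes itaconate in activated macrophages, had 4 and 2, and Mgl2, a macrophage and dendritic cell lectin, had 4 and 1. Runx3, a transcription factor of cytotoxic lymphocytes, differed from these: its wild-type-only promoter peak lay beside a second, and its knockout promoter peak was 31336 bp away, with 10 wild-type and 11 knockout peaks.

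Distal peaks of the same genes come from the same pair of libraries, and knockout distal peaks entered the rule: against knockout promoter peaks alone, 1042 wild-type promoter peaks would have been taken in place of 953. The distal values are therefore a description. Over all 14854 genes with a wild-type promoter peak, there were 48278 wild-type and 69650 knockout distal peaks, a ratio of 1.44, and 16.6% of the genes had fewer in the knockout. The 934 genes with a wild-type-only promoter peak had 4049 and 5081, a ratio of 1.25, with 25.6% having fewer. The 494 of them without a knockout promoter peak had 1671 and 1865 (1.12), with 30.2% having fewer. The 10 natural killer and cytotoxic genes had 35 and 18 (0.514), with 5 having fewer, 5 an equal number and none more. The 14 genes of the other white blood cell and macrophage lists had 87 and 74 (0.851), with 7 having fewer, 4 an equal number and 3 more. Whole white blood cell and macrophage lists, with or without a wild-type promoter peak, ran from 0.662 (natural killer and cytotoxic) to 1.16 (T cell). The germline and testis control list had 38 and 32 (0.842), with 54.5% of its genes having fewer, and the housekeeping list had 52 and 65 (1.25). Of the 4049 wild-type distal peaks 63.9% were shared, against 67.6% of all distal peaks assigned to a gene.

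Predicted and non-coding genes made up much of the rest. Of the 953 peaks, 296 (31.1%) carried predicted or clone-named genes alone, against 10.2% of the shared and 26.5% of the knockout-only promoter peaks. Of 1496 genes named Gm with a wild-type promoter peak 205 (13.7%) held a wild-type-only one, and of 858 RIKEN clone-named genes 81 (9.44%), beside 6.29% of all such genes. In the opposite direction 717 of 1993 (36%) and 257 of 1024 (25.1%) held a knockout-only one, beside 20.1%. Among the 802 of 934 genes that matched a RefSeq symbol, 77.9% were protein-coding and 19.1% long non-coding RNA genes, against 90.7% and 9.09% of the genes with shared promoter peaks alone. The share of wild-type promoter peaks that were wild-type-only ran from 4.68% on chromosome 8 to 10% on chromosome 14, and it was 0 of 4 on chromosome Y.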

How the data were processed

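Nuclei of frozen liver were profiled for RNA and open chromatin in 1 wild-type and 1 Mertk knockout preparation. Peak positions were deposited by the authors without score or height and came from cellranger-arc 2.0.2 on mm10, called per library, per the file headers. The authors' annotation assigns each peak to genes as promoter (1000 bp before to 100 bp after a start), distal or intergenic. The authors also deposited raw counts per barcode, used here for depth. For the caller's settings nothing is stated in the sources used here.

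Overlap meant at least 1 shared bp (the code was checked against bedtools 2.31.1). Peaks on other contigs (43 wild-type, 44 knockout) were left out. Gene names are those of the authors' annotation, of which 802 of 934 matched a RefSeq symbol or synonym; sequences are RefSeq's, GRCm38.p6. Shares carry exact (Clopper-Pearson) 95% intervals, which cover counting error only. With 1 library per genotype no test was made. Calculations ran in Python 3.11.15 (pandas 2.3.3, numpy 2.4.6, scipy 1.17.1), and figures were drawn with matplotlib 3.10.9.

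The members, the 22 gene lists (423 genes), the families and the naming rule were chosen with earlier results of these data known. The rule named Mertk; list genes with a wild-type-only promoter peak (the 6 widest where more); the genes of the 15 widest peaks; the 10 with most wild-type and 0 knockout peaks; genes with 2 or more such peaks (at most 10); up to 4 per family; and the 5 at each edge of the rule. A selection of these is described. Matches to 12 motifs were searched on both strands. The sequences mark 9 of them, without E-box, CRE and PU.1 letters. Shares in the matched windows are given for ETS, PU.1, Runx and Sp letters alone. Alternatives varied the overlap, the gap, the width, the annotation lines and the contigs.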

Additional observations from a re-analysis of the deposited data

How the results depend on the processing

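No paired analysis was possible because each genotype had 1 library, and for the same reason no replicate could be left out. The share of wild-type promoter peaks found only in wild type, 6.49%, became 7.106% when at least 50% of the peak had to overlap, 5.527% and 3.315% when a knockout peak within 200 bp or 1 kb counted as shared, 4.655% for peaks of at least 800 bp, 3.83% with the annotated start inside, 5.627% with promoter lines alone and 7.093% against knockout promoter peaks alone. Their number fell to 487 (1 kb), 578 (800 bp) and 498 (start inside), and their genes to 468, 573 and 503, since each of these settings keeps fewer peaks. Median width became 848 bp (200 bp), 866 bp (1 kb), 877 bp (800 bp) and 853.5 bp (start inside). The share with predicted genes alone became 37.99% (1 kb), 35.99% (800 bp) and 24.28% (promoter lines alone), and the cause was not tested. Genes without a knockout promoter peak numbered 255 once predicted names were left out, by construction. The median GC of matched shared windows became 62% when the window had to lie inside the peak, which changes the peaks matched. The other 73 of 95 main values under alternatives kept within their limits. The count of 10 natural killer and cytotoxic genes did not leave 1.5 times its value under any setting, and 27 of 199 list counts did; neutrophil genes fell to 0 at 1 kb and 1 at 800 bp. Motif shares in the central part of a peak and repeat shares were not run, since no genome was used here. The knockout library had 2.06 times the fragments, whose part was not tested. With no heights, peaks just under the caller's limit cannot be told from closed chromatin.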
